A study of Homo sapiens with 6 samples.

Results

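The replication-dependent histone genes were followed in AGS, an established cell line from a human gastric adenocarcinoma. Cells had received siRNA directed at CTNNB1, which encodes beta-catenin, or a control siRNA, and RNA was taken 48 hours later. The number and sequence of the siRNAs were not given. Each group held 3 Affymetrix Human Gene 1.0 ST arrays, and the labels name no other allele or agent. Cells grew with serum in 6-well plates, and RNA was taken with Trizol and labelled with the Ambion WT Expression kit. The genes were chosen by name: every row of the deposited table paired with exactly 1 gene symbol whose older form begins with HIST1H, HIST2H or HIST3H. Of 19460 such singly named transcript clusters (the array's unit of about 1 gene), 58 qualified. The rows of H4C14 and H4C15 held identical values and were counted once, which left 57 measurements: 6 of linker histone H1, 14 of H2A, 17 of H2B, 9 of H3 and 11 of H4. H3-4, the testis histone formerly called HIST3H3, was included, and H4C16, formerly HIST4H4 and outside the clusters, was not. Symbols are the current ones.

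Replication-dependent histone genes supply the proteins that package newly copied DNA. H2A, H2B, H3 and H4 form the nucleosome core, and H1 binds the linker DNA between nucleosomes. The genes lack introns, lie in clusters and are transcribed mainly in S phase under NPAT, the coactivator that cyclin E and CDK2 phosphorylate. Their mRNAs usually end in a stem-loop bound by SLBP instead of a poly(A) tail. That kit primes along RNAs as well as near their tails, so that such mRNAs can be measured. Many copies differ by few bases, and a probe set can therefore read several copies.

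The stretches below lie directly before the transcription start (RefSeq, GRCh38.p14). They are shown because they belong to the H3 genes with the smallest p, the H2A gene whose groups lay apart, the H2B gene with the most negative difference, an H2B gene with the octamer, and a member each of H1 and H4. Capitals mark any of 4 motifs, searched on both strands. The TATA box, which positions the polymerase, was searched as TATAAA. The CCAAT box, bound by the factor NF-Y, was searched under those 5 letters. The octamer, bound by POU2F1, was searched as ATTTGCAT. The element known as the H1 AC box was searched as AAACACA. No motif contains another.
H3C2, chr6:26032100-26032239, minus strand: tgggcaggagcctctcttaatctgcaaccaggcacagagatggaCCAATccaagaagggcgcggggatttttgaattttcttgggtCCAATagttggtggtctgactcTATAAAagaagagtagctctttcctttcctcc
H3C7, chr6:26250636-26250775, minus strand: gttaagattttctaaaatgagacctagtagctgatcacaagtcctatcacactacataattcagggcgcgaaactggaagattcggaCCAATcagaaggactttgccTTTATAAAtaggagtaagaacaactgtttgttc
H2AC15, chr6:27838376-27838515, minus strand: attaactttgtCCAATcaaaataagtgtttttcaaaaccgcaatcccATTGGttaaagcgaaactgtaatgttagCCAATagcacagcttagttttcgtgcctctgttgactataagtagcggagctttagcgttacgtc
H2BC13, chr6:27807930-27808069, minus strand: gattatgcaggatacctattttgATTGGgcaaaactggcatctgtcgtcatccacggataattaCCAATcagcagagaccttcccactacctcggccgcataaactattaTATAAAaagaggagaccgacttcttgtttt
H2BC14, chr6:27814882-27815021, plus strand: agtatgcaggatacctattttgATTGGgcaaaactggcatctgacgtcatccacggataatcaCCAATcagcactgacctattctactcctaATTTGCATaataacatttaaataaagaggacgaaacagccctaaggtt
H1-4, chr6:26156189-26156328, plus strand: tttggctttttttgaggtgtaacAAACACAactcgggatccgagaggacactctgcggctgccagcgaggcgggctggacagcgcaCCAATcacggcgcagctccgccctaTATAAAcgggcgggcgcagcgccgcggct
H4C13, chr6:27873535-27873674, minus strand: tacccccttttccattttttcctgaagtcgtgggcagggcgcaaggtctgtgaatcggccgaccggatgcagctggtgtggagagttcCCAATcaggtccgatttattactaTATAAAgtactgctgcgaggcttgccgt

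The spread of these elements over the classes is a description and was not tested. Of the 57 members, 51 had an entry in the promoter table, which reaches from 250 bases before to 50 bases after the start. TATAAA stood in 34 of the 51 windows (66.7%), against 9.0% of the 14237 windows of all tested genes with an entry. By class these were 3 of 6 H1, 10 of 13 H2A, 12 of 16 H2B, 5 of 7 H3 and 4 of 9 H4 windows. CCAAT stood in 45 (88.2% against 36.3%): in all 6 H1, all 13 H2A, all 16 H2B and all 7 H3 windows, but in 3 of 9 H4 windows. The octamer stood in 13 of 16 H2B and 10 of 13 H2A windows and in 0 of the H1, H3 and H4 windows, against 1.62% of all windows. The AC box stood in all 6 H1 windows and in 1 other, that of H2AC20, against 3.98%. A match is a string of letters and not evidence of binding. Many H2A and H2B windows are not separate evidence, since 12 pairs of histone genes in the table started head to head within 1000 bases. All but H3C4 with H2BC7 and H3C7 with H2BC9 joined an H2A and an H2B gene. Those starts lay 194 to 248 bases apart, so that their windows share sequence. H3C7 and H2BC9 started 979 bases apart, and their windows do not overlap.

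CTNNB1 itself read 11.92, 11.76 and 11.75 on control arrays 1 to 3 and 10.27, 10.78 and 10.58 on CTNNB1 siRNA arrays 1 to 3, on the log2 scale used throughout. The CTNNB1 siRNA arrays held 41.5% of the control level, and the groups lay apart in the labelled direction. The difference of -1.27 (SE 0.17) had an adjusted p of 0.232 in limma and so did not pass over all clusters. The array of CTNNB1 siRNA replicate 1 was least like the rest, with correlations across clusters of 0.962 to 0.965 against 0.983 to 0.988 among the remaining pairs. Of the epithelial and gastric markers, 9 of 9 measured lay above the level of the dimmest 40% of clusters (5.362), as did 1 of 4 leukocyte markers (LYZ), 1 of 5 fibroblast markers (COL1A1) and 0 of 4 endothelial markers. The mean level of the epithelial and gastric list was 8.9 to 9.06 on control and 9.31 to 9.7 on CTNNB1 siRNA arrays. Within it only TFF1 (1.79), KRT19 (0.96) and CLDN4 (0.67) had groups apart, all higher. Their values shrank to 1.24, 0.54 and 0.42, in that order, once CTNNB1 siRNA replicate 1 was dropped. Groups overlapped for the remaining markers, among them CDH1 (0.016) and GATA6 (-0.39), the only marker below 0. Whether the marker levels bear on the histone values was not tested. The same mean was 5.98 to 6.12 in control and 5.93 to 6.11 in CTNNB1 siRNA arrays for leukocytes, 4.76 to 4.9 and 4.88 to 5.01 for fibroblasts, and 3.99 to 4.04 and 3.97 to 4.21 for endothelium. The titles call the arrays biological replicates and do not say whether the cultures were separate, so the p-values cover only the variation among these 6 arrays, which may be technical.

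Most histone genes read slightly lower after CTNNB1 siRNA, and none of these differences passed the test. The log2 difference (CTNNB1 siRNA minus control siRNA) was below 0 for 46 of 57 members, 80.7%, where 50.8% of all tested clusters were below 0. The median was -0.21, against -0.004 for all tested clusters, and single members ran from -0.87 (H2BC13) to 0.27 (H4C2). In limma 0 members had an adjusted p under 0.05, in either direction, the smallest being 0.816, while 0.0% of all tested clusters passed as lower and 0.00514% (1 cluster) as higher. At an unadjusted p under 0.05 there were 2 members lower (H3C2 and H3C7), 3.51%, and 0 higher, against 2.6% of all tested clusters lower and 3.04% higher. The groups lay apart for 2 members (H3C2 and H2AC15), both lower, against 6.8% of all tested clusters lower and 6.81% higher. With 1 array left out the number at an unadjusted p under 0.05 ran from 0 (without control siRNA replicate 1) to 7 (without CTNNB1 siRNA replicate 2). By these counts the singly named histone genes were near the background, and they differed from it in the share with a negative sign. Clusters annotated to several histone genes are not in these counts and are described at the end. A difference at or below -0.5 was seen for 13 members (22.8%, against 3.61%), but this count rested on single arrays. It was 6 without control siRNA replicate 1 (10.5%, against 3.56%) and 3, namely H3C7, H2AC14 and H3C12, without CTNNB1 siRNA replicate 1 (5.26%, against 1.54%). Of these, H2AC14 was among the dimmest 40% of clusters. In bulk RNA, fewer cells in S phase and less histone RNA per cell cannot be told apart.

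**Figure D1:**
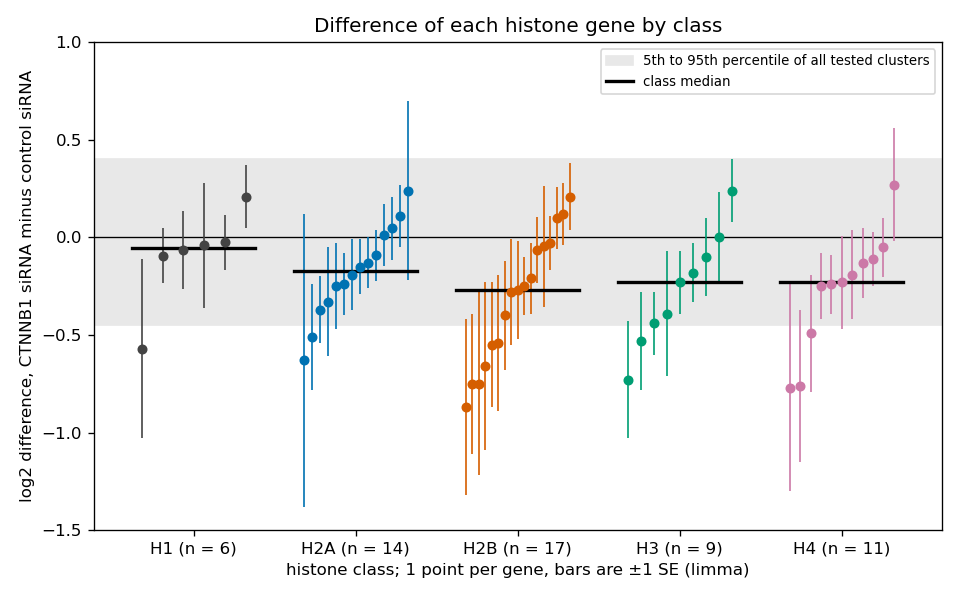
Log2 difference (CTNNB1 siRNA minus control siRNA, vertical axis) of each of the 57 histone measurements, in columns by class. Points are genes, bars are 1 SE from limma, black lines are class medians, and the grey band spans the 5th to 95th percentile of all tested clusters (-0.45 to 0.4). All 5 class medians lie between -0.269 and -0.052, inside the band, and 13 points lie at or below -0.5.

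The share below 0 changed little with any 1 array left out, while the size changed more. Such fits keep all the other arrays, so they do not show the sign on single arrays. With 1 array left out at a time, 43 to 46 of the 57 members were below 0 and the median lay between -0.263 and -0.115. Over all tested clusters the share below 0 was 52.4%, 49.3% and 49.9% without control siRNA replicates 1, 2 and 3 and 50.4%, 50.1% and 53.3% without CTNNB1 siRNA replicates 1, 2 and 3. The median was least negative when control siRNA replicate 1 (-0.115) or CTNNB1 siRNA replicate 1 (-0.122) was left out. Control siRNA replicate 1 held the highest of the 6 values for 31 members (54.4%, against 17.8% of all tested clusters), for 5 of them by at least 0.5 (8.77%, against 1.57%). CTNNB1 siRNA replicate 1 held the lowest for 28 (49.1%, against 31.3%). As the median deviation from the control mean, the members lay at 0.162, -0.107 and -0.041 on control arrays 1 to 3 and at -0.207, -0.122 and -0.183 on CTNNB1 siRNA arrays 1 to 3. Replicate 2 of both groups thus lay at nearly the same level. Over all tested clusters these 2 arrays had median deviations of 0.005 and -0.013, a gap at least as large as that between them for the histones. The 19 members in the dimmest 40% of clusters, a range in which RMA shrinks differences, had a median of -0.051 with 13 below 0. The other 38 had -0.23 with 33 below 0, against -0.012 and 51.9% of all clusters of that brightness.

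**Figure D2:**
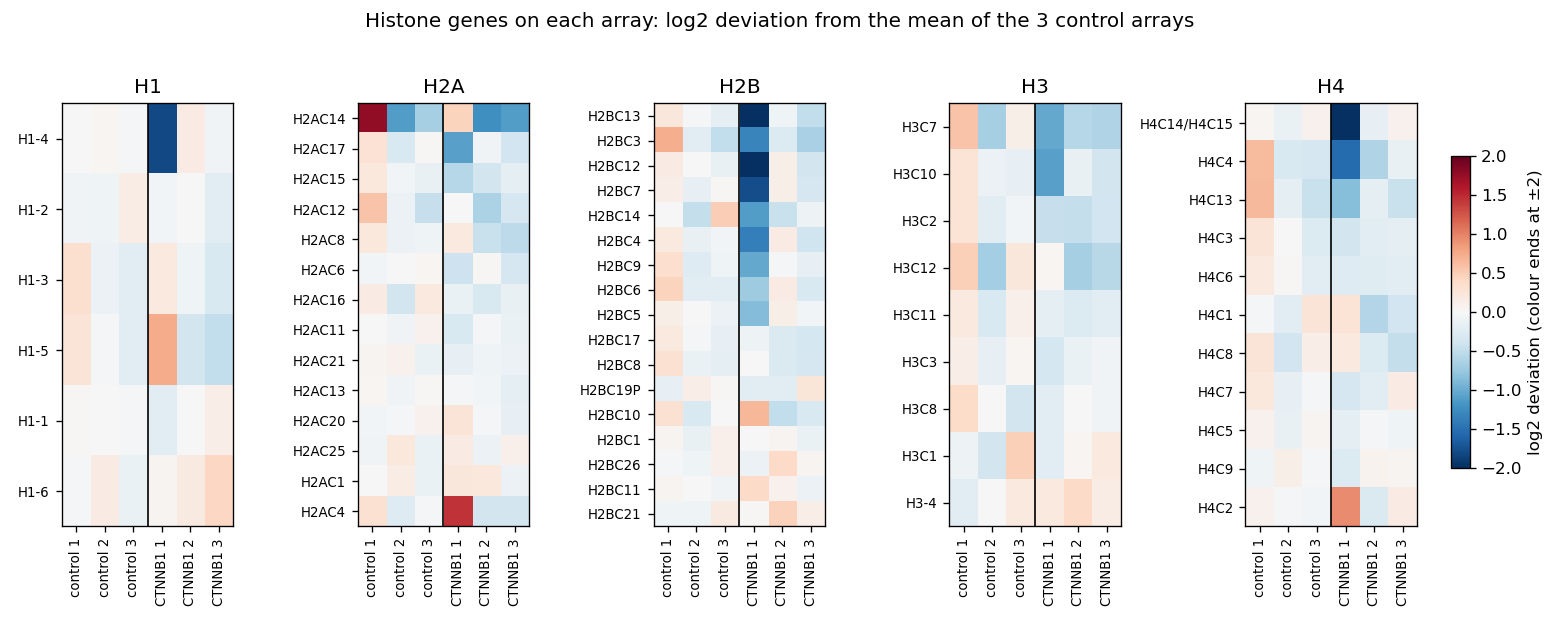
Log2 deviation of each histone gene from the mean of the 3 control arrays, with arrays in columns (control siRNA left of the black line, CTNNB1 siRNA right of it), genes in rows ordered by their difference within each class, blue for lower and red for higher. Dark blue cells gather in the column of CTNNB1 siRNA replicate 1, mostly in the H2B panel, where the median deviation is -0.714, and the column of control siRNA replicate 1 is mostly pale red.

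H3 genes held both members with an unadjusted p under 0.05. H3C2, one of the genes of the canonical H3.1 protein, read 10.12, 9.63 and 9.79 on control arrays 1 to 3 and 9.39, 9.36 and 9.46 on CTNNB1 siRNA arrays 1 to 3. All 3 CTNNB1 siRNA arrays lay below all 3 control arrays and spanned 9.36 to 9.46. The difference was -0.44 (SE 0.16, n = 3 per group; limma adjusted p = 0.816), and -0.30 to -0.55 with any 1 array left out. H3C7, another H3.1 gene, read 8.06, 6.83 and 7.6 on control arrays 1 to 3 and 6.48, 6.92 and 6.89 on CTNNB1 siRNA arrays 1 to 3. Control siRNA replicate 2 fell among the CTNNB1 siRNA arrays, so the groups overlapped. Its difference was -0.73 (SE 0.30; limma adjusted p = 0.816), and -0.45 without control siRNA replicate 1. Both promoters shown above carry a TATA box and, further from the start, a CCAAT.

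The groups of the other 7 H3 members overlapped. H3C10 read 6.76, 6.38 and 6.31 in control and 5.41, 6.33 and 6.12 in CTNNB1 siRNA cells, a difference of -0.53 (SE 0.25) that was -0.26 without CTNNB1 siRNA replicate 1, the lowest array. H3C11 read 11.84, 11.34 and 11.73 in control and 11.45, 11.37 and 11.42 in CTNNB1 siRNA cells, a difference of -0.23 (SE 0.16) that was -0.13 without control siRNA replicate 1 and -0.38 without control siRNA replicate 2. Its 3 CTNNB1 siRNA arrays differed by less than 0.1, and control siRNA replicate 2 lay below them. H3C12 (-0.39, and -0.73 to -0.16 with 1 array left out), H3C3 (-0.18) and H3C8 (-0.10, and 0.079 without control siRNA replicate 1) were also below 0, H3C1 was at 0.0018, and H3-4, expressed mainly in testis, was at 0.24 (SE 0.16). The H3 median was -0.227. Leaving out control siRNA replicate 1 gave -0.126, and leaving out control siRNA replicate 2 gave -0.377.

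**Figure D3:**
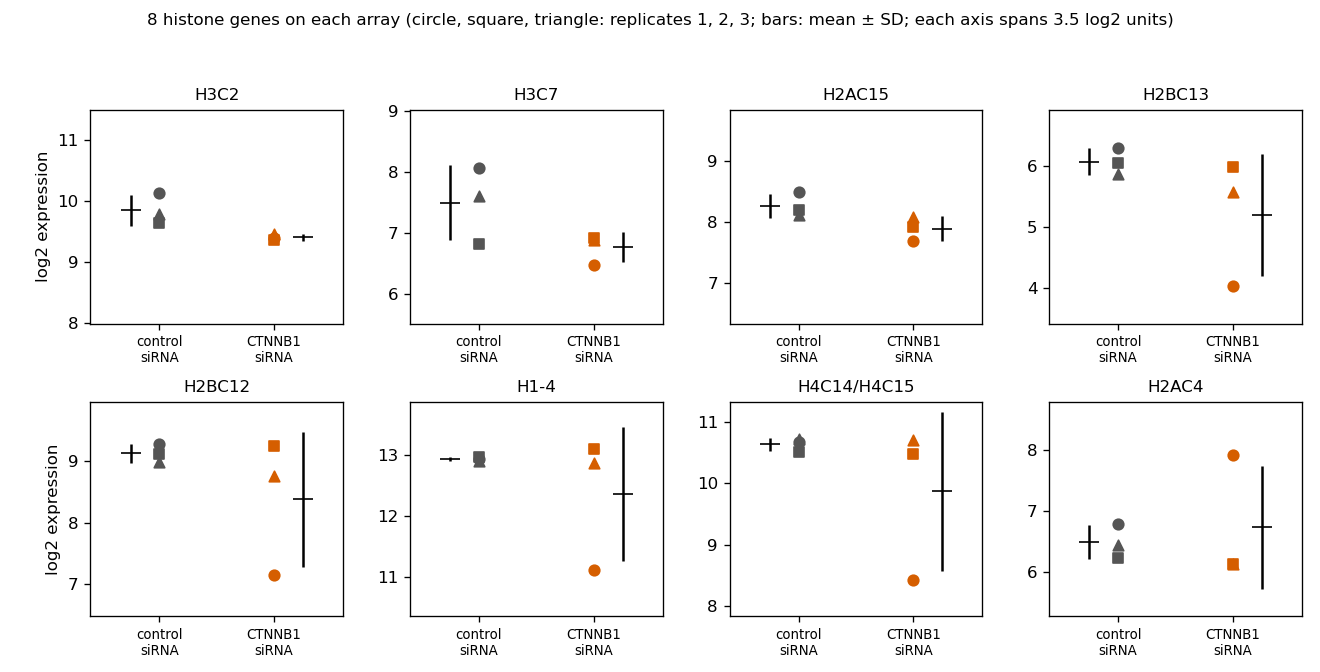
Log2 expression of 8 histone genes on every array; circles, squares and triangles are replicates 1, 2 and 3, grey for control siRNA and orange for CTNNB1 siRNA, with the mean and SD beside them, and each vertical axis spans 3.5 log2 units. H3C2 and H2AC15 have separate groups, whereas in H2BC13, H2BC12, H1-4 and H4C14/H4C15 the orange circle (CTNNB1 siRNA replicate 1) lies far below the other 5 points, and in H2AC4 it lies above them.

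H2B genes had the most negative class median, -0.269, with 14 of 17 members below 0, and its values were far lower on 1 CTNNB1 siRNA array than on the others. The class median deviation was -0.714 on CTNNB1 siRNA replicate 1, 0.058 on replicate 2 and -0.297 on replicate 3, against 0.16, -0.127 and -0.073 on control arrays 1 to 3. Without CTNNB1 siRNA replicate 1 the class median was -0.11, with 13 of 17 below 0. Without CTNNB1 siRNA replicate 2 it was -0.46, and without control siRNA replicate 1 it was -0.147.

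H2BC13, an H2B gene on chromosome 6, read 6.3, 6.05 and 5.87 on control arrays 1 to 3 and 4.04, 5.98 and 5.57 on CTNNB1 siRNA arrays 1 to 3. Replicates 2 and 3 lay at or near the control arrays, and replicate 1 lay 1.53 below the next lowest array. The difference of -0.87 (SE 0.45; adjusted p = 0.816 in limma) was the most negative of all members, and it was -0.29 without that replicate. H2BC3, just within the dimmest 40% of clusters, read 6.42, 5.47 and 5.2 in control and 4.38, 5.43 and 5.04 in CTNNB1 siRNA cells. There control siRNA replicate 1 was high and CTNNB1 siRNA replicate 1 low. Its difference was -0.75 (SE 0.36), and -0.38 without the first of these arrays and -0.46 without the second. H2BC14 and H2BC9 differed by -0.55 (SE 0.32) and -0.40 (SE 0.28). H2BC14 read 11.04, 10.57 and 11.55 in control and 9.93, 10.62 and 10.95 in CTNNB1 siRNA cells. H2BC9 read 10.99, 10.4 and 10.57 and then 9.63, 10.64 and 10.49. In both genes CTNNB1 siRNA replicate 1 was the lowest array, and without it the differences were -0.27 and -0.092. H2BC14 was -0.31 without control siRNA replicate 3, and H2BC9 was -0.23 without control siRNA replicate 1. H2BC21, which is also known to give polyadenylated transcripts, differed by 0.21 (SE 0.17), and H2BC26 by 0.10. Clusters annotated to H2BC21 together with other H2B genes, which are not members, went the other way, at -0.43 and -0.35.

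On CTNNB1 siRNA replicate 1, 13 of 57 members (22.8%) lay at least 0.5 log2 units below every other array, against 7.81% of all tested clusters; this gap was set after the values were seen. These 13 comprised 8 H2B genes, 2 of H4 (counting H4C14/H4C15 once) and 1 each of H1, H2A and H3. In the opposite direction, H2AC4 and H4C2 lay at least 0.5 above every other array (3.51% of members, against 6.99% of all tested clusters).

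Genes that start head to head could differ on this array. Of 12 head-to-head pairs, 10 had both genes among the members. On CTNNB1 siRNA replicate 1, H2BC13 deviated from its control mean by -2.03 and its partner H2AC13, whose start lies 244 bases away, at -0.03. H2BC4 lay at -1.37 and its partner H2AC6 at -0.42. In the pair of H2AC17 and H2BC17 the order was turned, with -1.08 for the H2A gene and -0.1 for the H2B gene. H3C7 and H2BC9 both lay at -1.02. Of 33 measured genes that transcribe or process histone RNA, 10 were lowest and 10 highest on this array. Over all 19460 tested clusters 6086 (31.3%) were lowest and 4801 highest on it, so these counts were near the background. NPAT and ZNF473 were among the low and SNRPD3 among the high. Whether they bear on the histone values was not tested.

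**Figure D4:**
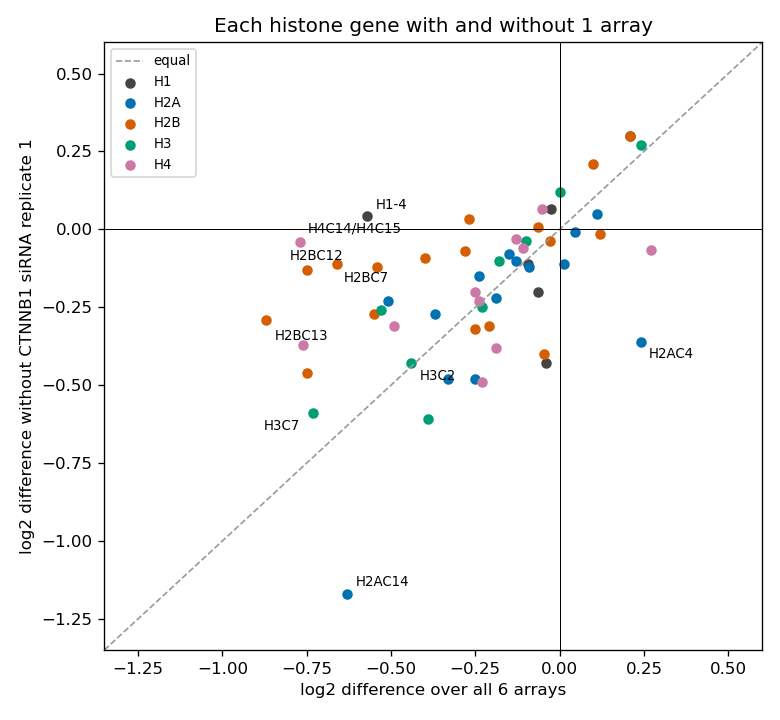
Log2 difference of each histone gene over all 6 arrays (horizontal axis) against the same without CTNNB1 siRNA replicate 1 (vertical axis), coloured by class, with the dashed line marking equal values. H1-4, H4C14/H4C15, H2BC12 and H2BC7 move from -0.57, -0.77, -0.75 and -0.66 to 0.043, -0.041, -0.13 and -0.11, whereas H3C2 stays on the line (-0.44 and -0.43) and H2AC4 turns from 0.24 to -0.36.

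H2A genes differed less, with a median of -0.174 and 10 of 14 below 0. H2AC15 read 8.48, 8.2 and 8.11 on control arrays 1 to 3 and 7.69, 7.91 and 8.08 on CTNNB1 siRNA arrays 1 to 3. The groups were apart by a narrow gap, between control siRNA replicate 3 and CTNNB1 siRNA replicate 3. The difference was -0.37 (SE 0.17; limma adjusted p = 0.816), and -0.26 to -0.46 with any 1 array left out. Another cluster, annotated to both H2BC15 and H2AC15 and therefore not a member, differed by -0.04, and its groups overlapped. H2AC17, just within the dimmest 40% of clusters, read 5.86, 5.26 and 5.59 in control and 4.49, 5.5 and 5.19 in CTNNB1 siRNA cells. Its difference was -0.51 (SE 0.27), and -0.23 without CTNNB1 siRNA replicate 1. H2AC6 read 7.44, 7.49 and 7.53 and then 7.06, 7.51 and 7.16, a difference of -0.24 (SE 0.16). Replicate 2 lay among the controls there, and the difference was -0.15 without CTNNB1 siRNA replicate 1.

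H2AC21 and H2AC20, selected for their high mean signal, showed small differences. H2AC21 read 11, 11.03 and 10.81 in control and 10.78, 10.85 and 10.83 in CTNNB1 siRNA cells, a difference of -0.13 (SE 0.13). H2AC20 read 9.71, 9.73 and 9.85 and then 10.02, 9.72 and 9.59, a difference of 0.014 (95% confidence interval -0.35 to 0.37) whose sign changed with the array left out. H2AC4, on the other hand, depended on CTNNB1 siRNA replicate 1, which read 7.92 against 6.13 on both replicates 2 and 3 and 6.23 to 6.79 in control. H2AC14, among the dimmest 40% of clusters, depended on control siRNA replicate 1, at 5.32 against 2.43 and 2.87 on the other control arrays. Its difference was -0.63 (SE 0.75), and 0.26 without that array. With control siRNA replicate 1 left out the H2A median was -0.086, and with control siRNA replicate 2 left out it was -0.215.

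H4 genes were below 0 in 10 of 11 measurements, with a median of -0.234, and -0.12 when control siRNA replicate 1 was left out and -0.137 when CTNNB1 siRNA replicate 2 was. H4C4 read 7.86, 6.92 and 6.9 in control and 5.69, 6.63 and 7.08 in CTNNB1 siRNA cells, a difference of -0.76 (SE 0.39) with overlapping groups. It was -0.44 without control siRNA replicate 1, the highest array, and -0.37 without CTNNB1 siRNA replicate 1, the lowest. H4C13 read 9.9, 9.05 and 8.8 and then 8.4, 9.07 and 8.8, a difference of -0.49 (SE 0.30) that was -0.16 when control siRNA replicate 1 and -0.31 when CTNNB1 siRNA replicate 1 was left out. H4C3 read 9.72, 9.47 and 9.19 and then 9.1, 9.24 and 9.28, a difference of -0.25 (SE 0.17) that was -0.12 without control siRNA replicate 1 and -0.39 without control siRNA replicate 3. H4C6, among the dimmest 40%, read 4.73, 4.57 and 4.33 and then 4.28, 4.3 and 4.34, a difference of -0.24 (SE 0.15) that was -0.14 without control siRNA replicate 1. CTNNB1 siRNA replicates 2 and 3 of H4C3, and replicate 3 of H4C6, lay above the lowest control array.

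H4C14 and H4C15, neighbouring copies of the same protein, shared values of 10.67, 10.51 and 10.73 in control and 8.42, 10.48 and 10.71 in CTNNB1 siRNA cells. The difference of -0.77 (SE 0.53) came from replicate 1, which lay 2.06 below every other array, and it was -0.041 without it. Another cluster, annotated to both genes and therefore not a member, read 7.05, 6.85 and 6.86 in control and 6.66, 6.79 and 6.33 in CTNNB1 siRNA cells. Its groups lay apart and lower, with a difference of -0.33 (limma adjusted p = 0.816), and replicate 3 and not replicate 1 was the lowest. Replicate 1 thus lay below the controls in both probe sets of the gene pair. Only in the first was it far below replicates 2 and 3. H4C2 was the member with the highest difference, 0.27 (SE 0.29), with 7.8 on CTNNB1 siRNA replicate 1 and 6.56 to 7 on the other arrays, and it was -0.066 without that array.

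H1 genes had the median nearest to 0, -0.052, with 5 of 6 below 0 (3 of 6 without replicate 1 of either group or CTNNB1 siRNA replicate 3), and it was 0.034 when control siRNA replicate 1 was left out and 0.016 when CTNNB1 siRNA replicate 3 was. H1-4 read 12.93, 12.97 and 12.9 in control and 11.12, 13.09 and 12.86 in CTNNB1 siRNA cells. Replicates 2 and 3 lay on either side of the controls, and replicate 1 lay 1.74 below every other array. The difference was -0.57 (SE 0.46), and 0.043 without that replicate. H1-5 moved the other way on the same array, with 9.9, 9.62 and 9.43 in control and 10.39, 9.28 and 9.15 in CTNNB1 siRNA cells. Its difference was -0.04 (SE 0.32), and -0.43 without replicate 1. H1-2 read 8.15, 8.13 and 8.36 and then 8.15, 8.23 and 7.98, a difference of -0.094 (95% confidence interval -0.42 to 0.24). H1-6, the testis H1, was at 3.06 to 3.6 on all arrays, among the dimmest clusters, and differed by 0.21 (SE 0.16).

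Positions came from the promoter table, which left out H2AC12, H2BC19P, H3C11, H3C12, H4C1 and H4C3. Starts within 200000 bases of the next were taken as 1 cluster. In the chromosome 6 cluster from H2BC13 to H2BC17, 11 of 11 placed members were below 0 with a median of -0.49, and 9 of 11 without control siRNA replicate 1. Leaving out control siRNA replicate 1 gave -0.164, and leaving out CTNNB1 siRNA replicate 1 gave -0.27. The larger chromosome 6 cluster from H1-1 to H4C8 had 23 of 27 below 0 and a median of -0.21, and -0.115 and -0.11 without those arrays. The 4 placed members from H2BC11 to H2BC12 had 3 below 0 and a median of -0.102, the pair of H2AC1 and H2BC1 had 1, and the 4 from H4C15 to H2AC21 on chromosome 1 had 2 and a median of -0.056. The 3 genes of the chromosome 1 cluster of H3-4, H2AC25 and H2BC26 were all above 0, at 0.24, 0.046 and 0.10, and H2AC25 and H2BC26 were among the dimmest 40% of clusters. With control siRNA replicate 3 left out H2AC25 was -0.025, with CTNNB1 siRNA replicate 1 left out it was -0.0094, and H2BC26 was -0.031 without CTNNB1 siRNA replicate 2. Differences between clusters and between classes were not tested.

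The machinery that makes and processes histone mRNA was measured with 33 of 35 listed genes. Their median was -0.101 with 21 below and 12 above 0, from -0.77 to 0.9, against 50.8% of all tested clusters below 0, and 0 passed the limma test in either direction, 0 also at an unadjusted p under 0.05. SLBP, the stem-loop binding protein, read 8.58, 8.19 and 8.17 in control and 8.06, 8.12 and 7.92 in CTNNB1 siRNA cells, a difference of -0.28 (SE 0.16) with groups apart, and as small as -0.15 with 1 array left out. NPAT differed by -0.40 (SE 0.30), and by -0.03 without CTNNB1 siRNA replicate 1, where it read 6.98. CASP8AP2, a component of histone locus bodies, differed by -0.30 (SE 0.17). ZNF473 differed by -0.77 (SE 0.34), and by -0.42 without CTNNB1 siRNA replicate 1. The 3' end factors CSTF1 (-0.28, SE 0.15) and FIP1L1 (-0.37, SE 0.21) had groups apart, FIP1L1 with -0.14 without CTNNB1 siRNA replicate 1. Groups lay apart for 6 of the 33 genes, all lower, against 6.8% of all tested clusters. In the other direction SNRPD3, a core protein of small nuclear ribonucleoproteins, differed by 0.90 (SE 0.79). It read 10.3 on CTNNB1 siRNA replicate 1 and 6.95 to 7.37 on the other arrays, and its difference was -0.18 without that replicate. SNRPF (0.46), LSM10 (0.30), a subunit of the U7 particle that cleaves histone RNA, and SNRPE (0.29) were likewise above 0 and, without that replicate, at -0.23, -0.12 and -0.18.

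Of 18 listed genes of variant histones, most of which are made outside S phase, 13 were found by symbol. H4C16, listed under another symbol, was measured (-0.71, described at the end) but is not among the 13. Those 13 had 8 members above and 5 below 0 with a median of 0.104. Without CTNNB1 siRNA replicate 1 the median was -0.006, with 7 below 0, so the sign rested on that array. In limma 0 passed, and 0 had an unadjusted p under 0.05. H3-3B, a gene of the replacement histone H3.3, differed by 0.31 (SE 0.26), but by 0.01 without CTNNB1 siRNA replicate 1. H2AX, the damage-marked H2A variant whose gene is also S-phase regulated, differed by -0.17 (SE 0.16), and by -0.06 to -0.25 with 1 array left out. The testis gene H1-7 differed by 0.23 (SE 0.16), and by 0.11 to 0.31. The difference between these genes and the replication-dependent ones was not tested.

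Histone chaperones, which carry new histones to DNA, had 18 of 27 measured genes below 0, against 50.8% of all tested clusters, and a median of -0.112. In limma 0 passed in either direction, with 1 (SET) at an unadjusted p under 0.05, and 0 to 4 with 1 array left out. Another 9 were above 0, up to 0.18. The median was -0.183 without CTNNB1 siRNA replicate 1 and -0.053 without CTNNB1 siRNA replicate 3. SET differed by -0.38 (SE 0.16) and HAT1, which acetylates new H4, by -0.39 (SE 0.18), both with groups apart. Only these 2 of the 27 lay apart, near the 6.8% of all tested clusters that lay apart and lower. MMS22L, a replication fork repair factor, differed by -0.30 (SE 0.16). With 1 array left out HAT1 was as small as -0.25 and MMS22L as -0.19. DNA replication genes, the other S-phase programme, had 40 of 48 measured members below 0, against the same 50.8%, and a median of -0.22, from -0.74 to 0.2. Among them were POLD3 at -0.53 (SE 0.14), DTL at -0.74 (SE 0.21) and ORC1 at -0.57 (SE 0.20, and -0.35 with 1 array left out). Groups lay apart for 13 of the 48, all lower, against 6.8% of all tested clusters. At an unadjusted p under 0.05 there were 9, all lower, where 2.6% of all tested clusters were, and 0 passed over all genes. With 1 array left out this count ran from 4 (without control siRNA replicate 1 or 3) to 17 (without CTNNB1 siRNA replicate 1). Their median deviations were 0.195, -0.147 and -0.012 on control arrays 1 to 3 and -0.019, -0.36 and -0.297 on CTNNB1 siRNA arrays 1 to 3. By these medians control replicate 1 was the highest array for both sets. CTNNB1 siRNA replicate 1 was the nearest of its group to the controls for the DNA replication genes and the lowest for the histones. Single DNA replication genes were split on that array, where 13 of the 48 had their lowest and 13 their highest value. Over all 19460 tested clusters 6086 were lowest and 4801 highest there. The difference between the sets was not tested.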

How the data were processed

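The deposited log2 values came from the authors' use of RMA, and the submitters' processing notes also name Affymetrix Expression Console 1.1. Its settings, the genome build and the annotation were not given in the sources used here. RMA equalises the arrays, which hides any shift common to all RNAs. From 500 ng of RNA per sample, 33297 transcript clusters were read. The platform table paired 19460 with exactly 1 symbol, and 19429 of these were updated through RefSeq gene identifiers. Those 19460 were tested with limma 3.58.1 (lmFit, eBayes) in R 4.3.3, 2-sided, with Benjamini-Hochberg adjustment over all of them and a threshold of 0.05, with no filter, weights or block. The procedure was tested on simulated data. The members, lists and motifs were chosen with earlier results of these data known. Named genes were, per class, the 2 with the highest mean signal, the 3 with the smallest p and any with p under 0.05; per list, the 3 with the smallest p and 4 fixed genes. H2BC7, H2BC12, H2BC4, H2AC4, H2AC13, H2AC14, H4C2, SNRPD3 and others outside this rule were named after their values were seen. Clusters with several symbols, and those not listed with a gene, were left out of the test. The number of arrays limits the precision. An exact permutation test of 3 arrays against 3 cannot give p below 0.1.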

Additional observations from a re-analysis of the deposited data

How the results depend on the processing

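No histone gene passed the limma threshold under any of 13 alternatives: 0 each time, with 0 to 7 members at an unadjusted p under 0.05, the lowest number being without control siRNA replicate 1 and the highest without CTNNB1 siRNA replicate 2. Over all clusters limma called 1, and 0 with the replicate block (1123 at an unadjusted p under 0.05) or with the dimmest 40% left out (670), 13 with array weights (1715), and 0 to 10 with 1 array left out. Same-numbered arrays deviated together weakly, with r of 0.0922, 0.12 and 0.098, and each array correlated best with its own number. Whether the replicate numbers pair the samples is therefore undecided. With the block as without it, 2 histone members had an unadjusted limma p under 0.05. The histone median stayed below 0 under all 16 alternatives, at -0.237 to -0.137 apart from the left-out arrays given above; 2 of these, chosen after seeing the data, counted H4C14 and H4C15 separately or replaced H3-4 by H4C16. The H2A, H2B, H3 and H4 medians also stayed below 0. The median of the variant histones, without H4C16, ran from -0.006 to 0.137 with 1 array left out. The CTNNB1 difference passed with array weights (-1.12, adjusted p = 0.0219) and under no other setting, with adjusted p of 0.646 with the replicate block and 0.052 to 0.937 with 1 array left out. Of the 22 histone genes selected by rule, 19 kept their sign under every alternative run; H2AC20, H1-4 and H1-5 did not. The cause was not tested.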

Other observations

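Clusters annotated to several histone genes at once, which the choice by single symbol leaves out, numbered 18 with 15 distinct sets of values and covered 24 symbols. Of the 15, 14 were below 0 and 1 above, with a median of -0.33, a range of -0.48 to 0.14 and 1 at an unadjusted p under 0.05 in limma. Groups lay apart, all lower, in every cluster of H3C13, H3C14 and H3C15, in that of H4C14 and H4C15 and in the dim one of H3C11 and H3C6. They overlapped in the rest. Of all tested clusters 6.8% lay apart and lower. One cluster of H3C13, H3C14 and H3C15 read 11.94, 11.8 and 11.67 on control arrays 1 to 3 and 11.2, 11.53 and 11.59 on CTNNB1 siRNA arrays 1 to 3 (difference -0.37). The cluster of H2AC18, H2AC19, H2AC20 and H2AC21 read 9.5, 9.12 and 9.4 and then 10.36, 9.08 and 9.02, so CTNNB1 siRNA replicate 1 was the highest array there, while the clusters of H2BC18 were lowest on it. These genes were named after their values were seen.

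H4C16, a single H4 gene outside the histone clusters, read 5.08, 4.92 and 4.84 in control and 3.39, 4.71 and 4.59 in CTNNB1 siRNA cells. It lay apart and lower, with a difference of -0.71 (SE 0.33; limma adjusted p = 0.816), and -0.29 without CTNNB1 siRNA replicate 1. Every value lay below 5.362, the level of the dimmest 40% of clusters.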
